A study of Mus musculus with 4 samples.

Results

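Cluster 14 is the smallest of 15 numbered cell clusters in a single-cell RNA sequencing study of mouse embryonic stem cells taken through directed cardiac differentiation. Its members here are the genes that the authors' deposited table of markers lists for it. These are 424 of the 2212 entries of the whole table, 314 listed higher and 110 listed lower than in all other cells. All cells carried a triple FLAG tag on BRG1, the ATPase of the BAF chromatin remodelling complex. The 4 libraries were WT MES (genotype BRG1 3XFLAG, mesoderm), Brm KO MES (BRG1 3XFLAG with BRM KO, mesoderm), WT CM (BRG1 3XFLAG, cardiac progenitors) and BRM KO CM (BRG1 3XFLAG with BRM KO, cardiac progenitors), with 1 library in each group. The labels call the source of both CM libraries cardiac myocyte. The table names no library, and its deposited name mentions only the Brm knockout, so how cluster 14 divides over genotypes and stages was not analysed. The number of cells and the depth are not stated in the labels or the file, and cells were not counted here. No value has a replicate, and no test was made. The knocked-out gene Smarca2, which encodes BRM, was listed for 0 clusters, so the table does not check the genotype labels.

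Extraembryonic endoderm descends from the primitive endoderm of the blastocyst and later lines the yolk sac. Its parietal branch migrates along the trophoblast and lays down Reichert's membrane, a thick basement membrane of type IV collagen and laminins. Its visceral branch stays around the embryo, takes up maternal protein by endocytosis, breaks it down in lysosomes and secretes carriers such as transthyretin and apolipoproteins. GATA and SOX transcription factors direct both branches. Embryonic stem cell cultures can also form such cells outside the embryo.

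The markers given with the label were counted in the same table, which is no independent check of the label. All 6 of the given markers (Col4a1, Gkn2, Sparc, Srgn, Ttr and Sox17) were listed higher in cluster 14, where 26.2% of the 1197 genes in the authors' deposited table were listed higher and 9.19% lower. Of the 28 parietal endoderm genes on a fixed list, 20 were in the table, 18 of them higher and 2 lower. Of the 37 visceral endoderm genes, 11 were in the table, 9 of them higher and 0 lower. The cluster therefore listed genes of both branches. Of the higher members, 5 given, 13 parietal and 7 visceral genes were higher in no other cluster. A gene that only cluster 14 lists is in the table through cluster 14, so it could not be counted as unlisted. The shares of list genes in the table that were higher, here and below, are raised by this. Where at least 50% of cells on the side with more had to detect a gene, 13 parietal and 4 visceral genes were higher. Afp, Apoa1, Apob, Hnf4a, Cubn and Lrp2 of the visceral list, and Thbd, Plat, Nid1 and Snai1 of the parietal list, were not in the table. List genes were matched by symbol as written. A gene listed under an older symbol, such as Spink3 for Spink1 of the visceral list, therefore counted as not in the table. Every entry of the table is at least 0.50 in size on the natural log scale, which is 1.65-fold, and is detected in at least 25.1% of the cells on the side with more, so an unlisted gene may still be expressed. The clusters were formed from these same genes, so the counts describe cluster 14 and support nothing beyond that. Lists and members were chosen with earlier results of these data known, and genes outside the naming rule, along with the role groups, were chosen after their values were seen.

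Cluster 14 held 0.291% of all cells (fit standard error 0.00912 percentage points), solved over 407 genes from the shares of cells that detect each gene inside and outside the clusters. It nevertheless had the most listed genes of any cluster after cluster 2, which had 580 against 424, and the most higher genes, 314 against 272. Of the 314 higher genes, 247 were listed higher in no other cluster, and 244 were listed for no other cluster in either direction. Over the whole table, 407 of the 1197 genes were listed for 2 or more clusters, so listing for 1 cluster was common. The same count is not given here for any other cluster, so whether it is unusual was not tested. In the authors' deposited table, 23 of the higher genes were detected in at most 1% of the other cells, and 69 in at most 5%. Of the 314, 26 were at least 5-fold higher and 185 at least 2-fold higher. Many of these genes are hardly detected in other cells, and their folds also depend on what the authors added to each mean before the logarithm, a number not stated in the labels or the file.

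**Figure D1:**
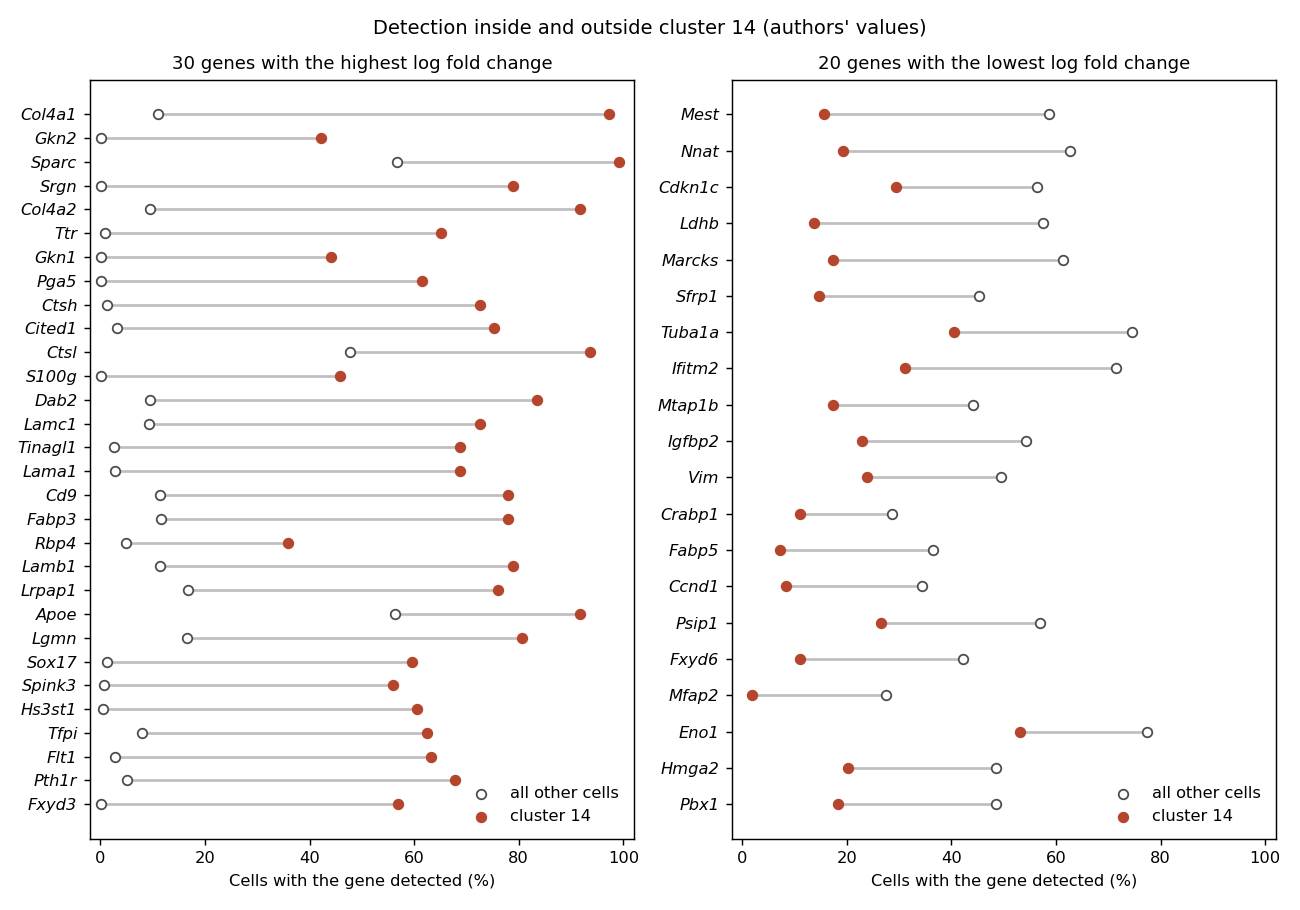
Percent of cells that detect each gene in cluster 14 (filled points) and in all other cells (open points), for the 30 genes at the top and the 20 at the bottom of the list by log fold change. Srgn is detected in 78.9% of cluster 14 and 0.2% of other cells, and Mest in 15.6% against 58.7%.

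Basement membrane genes were among those with the highest folds, with Col4a1 first. Col4a1, the alpha 1 chain of type IV collagen, was 22-fold higher, and 97.2% of cluster 14 cells against 11.1% of other cells detected it, according to the authors' deposited table. Col4a2, whose chain joins it in the same triple helix, was 14.1-fold higher, with 91.7% against 9.4% of cells by the values in the authors' deposited table. The chains of the classic laminin trimer stood beside them. Lamc1 was 8.26-fold higher (72.5% against 9.3%), Lama1 7.82-fold (68.8% against 2.7%) and Lamb1 6.88-fold (78.9% against 11.3%) per the authors' deposited table. All 5 were listed for cluster 14 alone. Tinagl1, a matrix protein that binds laminin, was 7.90-fold higher, and Hspg2, the heparan sulphate proteoglycan perlecan, 1.93-fold higher according to the authors' deposited table. Pxdn, the peroxidase that crosslinks type IV collagen, was 1.72-fold higher (34.9% against 6.6%), and Spock1, a proteoglycan related to Sparc, 2.61-fold higher (34.9% against 0.5%) by the values in the authors' deposited table.

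Col4a1 and Col4a2 are neighbours that lie head to head, and they are 1 of 9 pairs of neighbouring protein-coding genes among the higher genes. Their promoter windows, from 250 bases before to 50 after the annotated start, are shown because these 2 collagen genes, both among the 30 with the highest fold, share part of theirs. Both come from RefSeq on GRCm38.p6, Col4a1 at chr8:11312777-11313076 on the minus strand and Col4a2 at chr8:11312555-11312854 on the plus strand, each 5′ to 3′. Capitals mark the 78 bases that the windows share, read on opposite strands.
Col4a1: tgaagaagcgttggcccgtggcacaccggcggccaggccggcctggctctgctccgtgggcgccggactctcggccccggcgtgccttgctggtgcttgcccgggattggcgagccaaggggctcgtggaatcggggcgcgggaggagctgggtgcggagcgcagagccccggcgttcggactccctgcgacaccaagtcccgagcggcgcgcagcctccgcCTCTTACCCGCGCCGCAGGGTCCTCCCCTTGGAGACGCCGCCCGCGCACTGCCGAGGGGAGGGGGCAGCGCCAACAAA
Col4a2: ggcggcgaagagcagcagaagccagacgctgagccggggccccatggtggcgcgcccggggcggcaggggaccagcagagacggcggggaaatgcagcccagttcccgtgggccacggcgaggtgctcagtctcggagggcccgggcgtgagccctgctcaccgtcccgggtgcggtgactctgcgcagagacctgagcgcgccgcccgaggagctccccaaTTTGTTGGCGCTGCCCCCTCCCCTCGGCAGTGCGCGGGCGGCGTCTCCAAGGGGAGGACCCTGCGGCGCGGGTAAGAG
These windows hold 37 and 33 CpG dinucleotides, against a median of 7 over all 32851 windows. The submitters' processing notes name mm9, so these positions belong to the RefSeq table and not to the study's files.

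Sparc, a collagen-binding matrix protein that is abundant in parietal endoderm, showed a different pattern. It was 16.2-fold higher but was already detected in 56.7% of other cells, against 99.1% of cluster 14 per the authors' deposited table. Many other cells thus detected Sparc too, at a lower mean level. Of the 52 genes on the basement membrane and matrix list, 23 were in the table, with 10 higher (43.5%), 2 lower and 11 not listed for cluster 14. The 11 included the fibrillar collagens Col1a1, Col1a2 and Col3a1, Fn1 and Postn, and also Col18a1, a basement membrane collagen listed for cluster 9 at 2.07-fold higher per the authors' deposited table. Vcan and Fstl1 were lower, at 1.90-fold and 2.21-fold, according to the authors' deposited table. Vcan was 1.52-fold lower, under the threshold, once cluster 2 was taken out of the reference, and its adjusted p-value over cells exceeded 0.01 in the same table.

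Enzymes and chaperones that mature collagen were listed with it. Plod2, which hydroxylates collagen lysines, was 4.16-fold higher (74.3% against 15.7%), and the collagen chaperone Serpinh1 4.01-fold higher (97.2% against 65.0%), by the values in the authors' deposited table. The prolyl 4-hydroxylase subunits P4hb, P4ha1 and P4ha2 were 3.03-fold, 2.73-fold and 2.00-fold higher per the authors' deposited table. Leprel4, a partner of the prolyl 3-hydroxylases, was 1.68-fold higher, and Loxl2, which crosslinks collagen, 3.53-fold higher according to the authors' deposited table. Hydroxylation, chaperoning and crosslinking therefore each had listed members, while Colgalt1 and Crtap of the same list were not in the table. Of the 65 genes on the collagen processing and folding list, 22 were in the table, 15 higher (68.2%), 0 lower and 7 not listed here, with 12 of the 15 higher in no other cluster. Serpinh1, P4ha1 and Loxl2 were also higher in cluster 9, at 2.09-fold, 1.75-fold and 2.07-fold, in the authors' deposited table. General folding factors were also among the 15. Txndc12 was 2.99-fold, Erp29 2.50-fold, Pdia3 2.28-fold, Pdia5 1.94-fold, Calr 1.75-fold and Manf 1.69-fold higher by the values in the authors' deposited table. Hspa5 and Hsp90b1, major chaperones of the endoplasmic reticulum, were not listed for cluster 14, and were 1.96-fold and 2.03-fold higher in cluster 3 per the authors' deposited table.

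The route from ribosome to cell surface was also represented. Rrbp1, which binds ribosomes, and Ckap4, which helps shape the rough endoplasmic reticulum, were 3.12-fold and 3.10-fold higher according to the authors' deposited table. Both were also higher in cluster 9, at 1.81-fold and 1.67-fold, in the authors' deposited table. Ssr4 and Ssr2 of the translocon complex, Sec62 and the oligosaccharyltransferase subunit Dad1 were 1.76-fold, 1.72-fold, 1.83-fold and 1.68-fold higher by the values in the authors' deposited table. These were widely expressed genes, detected in 32.6% to 50.9% of other cells. The cargo receptors Tmed9, Tmed10 and Tmed2 were 2.18-fold, 1.89-fold and 1.72-fold higher and Lman2 1.90-fold per the authors' deposited table. Kdelr3, a receptor that returns chaperones from the Golgi, was 3.07-fold higher (50.5% against 5.0%) according to the authors' deposited table. Of 84 genes on the list for translocation, glycosylation and vesicle transport, 15 were in the table, 12 higher (80%), 0 lower and 3 not listed here. Of these, 11 were higher in no other cluster. Creb3l1 and Creb3l2, membrane-bound transcription factors that activate secretory pathway genes, were 2.39-fold (30.3% against 1.7%) and 2.06-fold higher (38.5% against 7.5%) by the values in the authors' deposited table. Sugar-modifying enzymes included Hs3st1, a heparan sulphate sulphotransferase, at 5.42-fold (60.6% against 0.5%), and the fucosyltransferase Fut8 at 2.31-fold per the authors' deposited table. Membrane fusion proteins Vamp8, Stx3 and Stx7 were 2.90-fold, 2.07-fold and 2.06-fold higher according to the authors' deposited table.

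Several small secreted proteins were hardly detected outside cluster 14. Gkn2, a gastrokine otherwise known from the stomach lining, was 16.7-fold higher, with 42.2% against 0.1% of cells, by the values in the authors' deposited table. Its neighbour Gkn1 was 12.3-fold higher, with 44.0% against 0.1%, per the authors' deposited table. Pga5, a pepsinogen, was 11.9-fold higher, with 61.5% against 0.1%, according to the authors' deposited table. Srgn, the core protein of a proteoglycan of secretory granules, was 14.4-fold higher, with 78.9% against 0.2%, by the values in the authors' deposited table. All 4 were listed for cluster 14 alone, and Srgn was detected in more cluster 14 cells than the other 3. Despite its small size, cluster 14 would hold 64.2% of all cells that detect Pga5 (54.4% to 78.2% from the rounding of the shares), 56.2% for Gkn1 (46.1% to 72.0%), 55.2% for Gkn2 (45.0% to 71.1%) and 53.5% for Srgn (47.9% to 60.5%), computed from the shares in the authors' deposited table.

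The gastrokine promoter windows are shown because both genes are among the 30 with the highest fold and are neighbours, and because Gata4 and Gata6, whose factors bind GATA sequences, were also listed higher. They come from RefSeq on GRCm38.p6, Gkn1 at chr6:87350866-87351165 on the minus strand and Gkn2 at chr6:87373115-87373414 on the plus strand, each 5′ to 3′. Capitals mark the motifs AGATAA and TGATAA, searched on both strands.
Gkn1: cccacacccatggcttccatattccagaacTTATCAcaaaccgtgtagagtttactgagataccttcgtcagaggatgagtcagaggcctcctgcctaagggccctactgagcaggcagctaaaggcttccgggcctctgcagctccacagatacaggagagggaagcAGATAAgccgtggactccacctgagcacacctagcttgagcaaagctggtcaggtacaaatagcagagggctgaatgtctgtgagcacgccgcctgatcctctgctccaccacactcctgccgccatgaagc
Gkn2: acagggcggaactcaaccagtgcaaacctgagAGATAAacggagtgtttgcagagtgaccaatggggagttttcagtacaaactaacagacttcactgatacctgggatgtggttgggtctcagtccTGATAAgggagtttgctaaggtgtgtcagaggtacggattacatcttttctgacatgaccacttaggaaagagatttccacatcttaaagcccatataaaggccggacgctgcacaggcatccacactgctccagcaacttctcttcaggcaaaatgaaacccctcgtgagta
Each gastrokine window held 2 matches, and 18.6% of all 32851 promoter windows held at least 1. Both motifs were absent from the Col4a1 and Col4a2 windows shown above. A match describes letters and is no evidence of binding. A count over all higher genes was void, since windows were matched for 247 of 314 (78.7%), under the 80% needed.

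Carriers of the visceral type were also higher. Ttr, the carrier of thyroid hormone and of the retinol-binding protein, was 12.3-fold higher, with 65.1% against 0.8% of cells, according to the authors' deposited table. Rbp4, the retinol carrier that binds it in plasma, was 6.91-fold higher, with 35.8% against 4.8%, by the values in the authors' deposited table. Apoe, a lipoprotein ligand for uptake receptors, was 6.53-fold higher, with 91.7% against 56.3%, per the authors' deposited table. Rbp4 was thus detected in fewer cluster 14 cells than Ttr or Apoe. Tcn2, which carries cobalamin, was 2.23-fold higher (43.1% against 6.7%), and Clu, an extracellular chaperone, 1.71-fold higher according to the authors' deposited table. Fth1, the ferritin heavy chain that stores iron, was 2.43-fold higher although nearly all cells detected it, 98.2% against 92.4%, by the values in the authors' deposited table. Of 46 genes on the carrier and lipoprotein list, 12 were in the table, 7 higher (58.3%), 2 lower and 3 not listed here. The lower members were intracellular lipid carriers, Crabp1 for retinoic acid at 2.77-fold and Fabp5 for fatty acids at 2.72-fold per the authors' deposited table. Another fatty acid carrier, Fabp3, was 7.36-fold higher (78.0% against 11.5%) according to the authors' deposited table. It was also higher in clusters 2 and 13, at 3.87-fold and 2.04-fold, per the authors' deposited table.

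Endocytosis and the lysosome formed the list with the most higher members. Of 77 genes, 32 were in the table, with 27 higher (84.4%), 1 lower (Laptm4b, 1.74-fold) and 4 not listed for cluster 14, by the values in the authors' deposited table. Of the 27, 22 were higher in no other cluster. Dab2, the adaptor that links megalin-type receptors to clathrin, was 8.99-fold higher, with 83.5% against 9.5% of cells, per the authors' deposited table. Lrpap1, the chaperone of that receptor family, was 6.81-fold higher, with 76.1% against 16.8%, according to the authors' deposited table. Amn, the partner of cubilin in visceral endoderm, was 2.38-fold higher, with 30.3% against 0.1%, by the values in the authors' deposited table. The receptors themselves, Lrp2 and Cubn, were not in the table, so their adaptor, chaperone and partner were listed without them. The clathrin heavy chain Cltc was 2.41-fold and the AP2 adaptor subunit Ap2a2 1.91-fold higher per the authors' deposited table. Rab11a of recycling endosomes, Ehd1 and Rab5c of early endosomes were 2.19-fold, 2.10-fold and 1.85-fold higher according to the authors' deposited table. The sorting nexins Snx3, Snx2 and Snx6 were 2.52-fold, 2.13-fold and 1.71-fold higher by the values in the authors' deposited table. Nostrin, an endocytic scaffold, was detected in 34.9% of cluster 14 and listed at 0.0% of other cells per the authors' deposited table. Myo6, the motor that carries new endocytic vesicles inward, was 2.21-fold higher (37.6% against 3.7%), and Clcn5, a chloride exchanger of endosomes, 1.90-fold higher (37.6% against 7.9%) according to the authors' deposited table.

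Lysosomal proteases had the largest values among the degradative genes. The cysteine cathepsin Ctsh was 10.9-fold higher, with 72.5% against 1.3% of cells, by the values in the authors' deposited table. Ctsl was 9.92-fold higher, with 93.6% against 47.8%, and Lgmn, the asparaginyl endopeptidase, 6.48-fold higher, with 80.7% against 16.6%, per the authors' deposited table. Ctsh was thus rarely detected outside cluster 14, whereas many other cells detected Ctsl. Ctsz, Ctsd, Ctsb and Ctsa followed at 3.16-fold, 2.87-fold, 2.52-fold and 2.37-fold according to the authors' deposited table. Ifi30, a thiol reductase of lysosomes, was 3.79-fold and the membrane protein Lamp1 3.22-fold higher by the values in the authors' deposited table. Other hydrolases had smaller values, with Hexa, Fuca1, Neu1 and Gaa between 1.70-fold and 1.80-fold higher per the authors' deposited table. Proton pump subunits Atp6v0b, Atp6v0e and Atp6v0c were 2.76-fold, 2.40-fold and 1.80-fold higher according to the authors' deposited table. In all, 22 of the higher genes were assigned to the lysosome and 19 to uptake and sorting, and all 19 were listed higher in cluster 14 alone, against 17 of the 22.

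Inhibitors of proteases and initiators of coagulation formed another group. Spink3, a trypsin inhibitor, was 5.84-fold higher, with 56.0% against 0.7% of cells, by the values in the authors' deposited table. Tfpi, which inhibits the tissue factor pathway, was 4.88-fold higher (62.4% against 7.9%), and F3, tissue factor itself, 4.26-fold higher (53.2% against 2.1%), per the authors' deposited table. The initiator of coagulation and its inhibitor were thus both listed. The membrane-bound Kunitz inhibitors Spint2 and Spint1 were 3.94-fold and 2.21-fold higher, and Serpinb6a 2.35-fold, according to the authors' deposited table. Cst3 and Cstb, inhibitors of cathepsins, were 1.96-fold and 1.71-fold higher by the values in the authors' deposited table. Of 53 genes on the list for proteases, inhibitors and coagulation, 17 were in the table, 11 higher (64.7%), 0 lower and 6 not listed here.

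**Figure D2:**
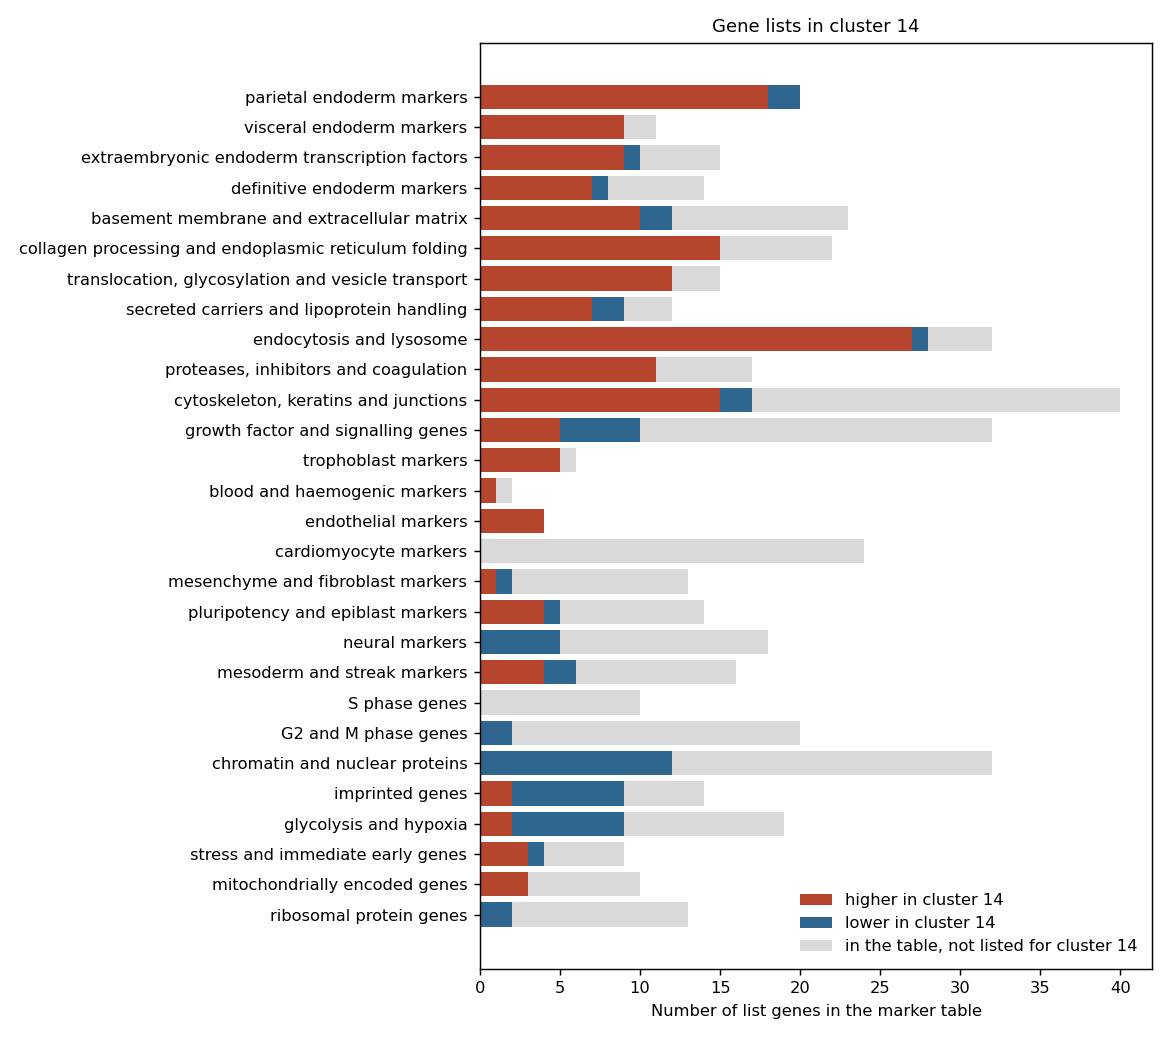
Number of genes of each fixed list that are in the marker table, divided into those higher in cluster 14, lower in cluster 14 and not listed for it. For endocytosis and lysosome 27 of 32 are higher, and for cardiomyocyte markers 0 of 24 are listed. Genes that only cluster 14 lists are in the table through it.

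Transcription regulators of extraembryonic endoderm were listed higher, and Sox17, Gata6 and Gata4 were detected in fewer cluster 14 cells than Col4a1 or Sparc. Sox17, a SOX factor of endoderm, was 6.29-fold higher, with 59.6% against 1.3% of cells, per the authors' deposited table. Gata6 was 2.55-fold higher, with 43.1% against 5.7%, and Gata4 2.27-fold higher, with 39.4% against 3.6%, according to the authors' deposited table. Cited1, a transcriptional coactivator, was 10.8-fold higher, with 75.2% against 3.2%, and its relative Cited2 3.81-fold higher, with 78.9% against 32.8%, by the values in the authors' deposited table. Cited1, Sox17 and Gata4 were listed for cluster 14 alone. Klf4 was 4.01-fold higher (55.0% against 1.7%), Foxq1 2.96-fold (45.9% against 0.8%) and Tcf7l2, an effector of Wnt signalling, 1.87-fold (46.8% against 13.3%) per the authors' deposited table. Epas1, which encodes the hypoxia factor HIF2 alpha, was 3.19-fold higher, with 42.2% against 0.4%, according to the authors' deposited table. Of 38 genes on the list of extraembryonic endoderm regulators, 15 were in the table, 9 higher (60%), 1 lower (Id3, 1.80-fold) and 5 not listed here, by the values in the authors' deposited table. Foxa2, which both visceral and definitive endoderm use, was among the 5 and was higher in clusters 3 and 6, at 2.85-fold and 1.66-fold, per the authors' deposited table. Sox7, Foxa1 and Hhex were not in the table.

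Some receptor and signalling genes were listed higher. Flt1, a receptor for vascular endothelial growth factor, was 4.87-fold higher, with 63.3% against 2.7%, according to the authors' deposited table. Pth1r, the receptor for parathyroid hormone related protein and a classical parietal endoderm gene, was 4.75-fold higher, with 67.9% against 5.1%, by the values in the authors' deposited table. Kit and Pdgfra, neighbouring receptor tyrosine kinase genes, were 2.14-fold (28.4% against 1.6%) and 2.13-fold higher (27.5% against 5.0%) per the authors' deposited table. Lifr, the receptor for leukaemia inhibitory factor, was 1.82-fold higher and Tnfrsf12a 3.34-fold higher according to the authors' deposited table. Across the 15 genes assigned to receptors and signalling, detection in other cells ran from 0.0% to 10.8%. That range depends on the assignment, made after the values were seen. Fst and Cyr61, on the fixed signalling list but placed in other groups, were detected in 14.8% and 21.6% of other cells. Dpp4, a surface peptidase, was detected in 39.4% of cluster 14 and listed at 0.0% of other cells by the values in the authors' deposited table. Fst, which binds and blocks activin, was higher in clusters 14 and 0, at 2.53-fold and 2.07-fold, per the authors' deposited table. Of 79 growth factor and signalling genes on the fixed list, 32 were in the table, 5 higher (15.6%) and 5 lower (15.6%), against 26.2% and 9.19% of all genes in the table.

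Genes of ion and metal handling were also listed. S100g, the calcium-binding protein calbindin of absorptive epithelia, was 9.22-fold higher, with 45.9% against 0.1%, according to the authors' deposited table. Fxyd3 and Atp1b1, a regulator and a subunit of the sodium pump, were 4.53-fold (56.9% against 0.1%) and 3.49-fold higher (73.4% against 12.5%) by the values in the authors' deposited table. Atp1b1 was also higher in clusters 2 and 13, at 6.23-fold and 2.49-fold, per the authors' deposited table. Slco2a1, a prostaglandin transporter, was detected in 26.6% of cluster 14 and listed at 0.0% of other cells per the authors' deposited table. The glucose transporter Slc2a3 was 3.95-fold, the monocarboxylate transporter Slc16a1 1.72-fold and the amino acid transporter Slc38a1 2.23-fold higher according to the authors' deposited table. The metal carriers Mt1 and Atox1 were 2.99-fold and 2.16-fold higher by the values in the authors' deposited table. In metabolism, Glul, which makes glutamine, was 4.31-fold higher, and the malic enzymes Me1 and Me2 3.21-fold and 2.55-fold, per the authors' deposited table. Cholesterol genes included Insig1 at 2.59-fold and the esterifying enzyme Soat1 at 1.79-fold higher according to the authors' deposited table.

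Some epithelial genes were listed higher and others were not listed. Of the 40 genes of the cytoskeleton, keratin and junction list in the table, 15 were higher (37.5%), 2 lower and 23 not listed for cluster 14. Among the 23 were Cdh1, which encodes E-cadherin, and the junction genes Dsp, Pkp2 and Ctnnb1. Cdh1 was higher in clusters 3 and 8, at 2.42-fold and 2.14-fold, in the authors' deposited table. Cd9, a tetraspanin, was 7.43-fold higher, with 78.0% against 11.3%, by the values in the authors' deposited table. The tight junction claudins Cldn6 and Cldn7 were 4.48-fold (71.6% against 11.8%) and 3.24-fold higher (43.1% against 5.5%) per the authors' deposited table. The simple epithelial keratins Krt18, Krt8 and Krt19 were 3.11-fold, 1.94-fold and 1.86-fold higher, and were detected in 85.3%, 76.1% and 45.0% of cluster 14 cells, according to the authors' deposited table. Epcam, an adhesion gene, was 2.28-fold higher, with 61.5% against 13.6%, by the values in the authors' deposited table. Podxl, an anti-adhesive apical glycoprotein, was 2.65-fold and Ezr, which links membrane to actin, 1.83-fold higher per the authors' deposited table. Subunits Arpc1b, Arpc2 and Arpc5 of the actin-branching complex were 2.00-fold, 1.91-fold and 1.72-fold higher according to the authors' deposited table. Vim, an intermediate filament gene that parietal endoderm is known to express, was 2.82-fold lower, with 23.9% against 49.5%, and Cdh2, N-cadherin, 2.14-fold lower, by the values in the authors' deposited table.

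A further group is known from placenta, germ line or imprinting. Trap1a was 4.16-fold higher (51.4% against 0.2%), Rhox6 2.36-fold (25.7% against 0.0%), Nxf7 2.02-fold (32.1% against 1.4%) and Fmr1nb 2.33-fold (33.9% against 3.7%) per the authors' deposited table. These 4 are among the 16 X-linked genes of the 311 higher genes that matched RefSeq (5.14%), beside 48 X-linked genes of the 1185 matched genes of the whole table (4.05%). Dppa5a was detected in 25.7% of cluster 14 against 0.4% of other cells, and Peg10, an imprinted gene of placenta, was 2.89-fold higher according to the authors' deposited table. H19, the imprinted RNA, was 2.80-fold higher with detection of 63.3% against 42.5%, and was 1 of 3 higher genes whose authors' adjusted p-value over cells exceeded 0.01 in the authors' deposited table. The class I antigen presentation genes B2m, H2-D1 and H2-K1 were 3.13-fold, 2.76-fold and 1.83-fold higher by the values in the authors' deposited table.

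**Figure D3:**
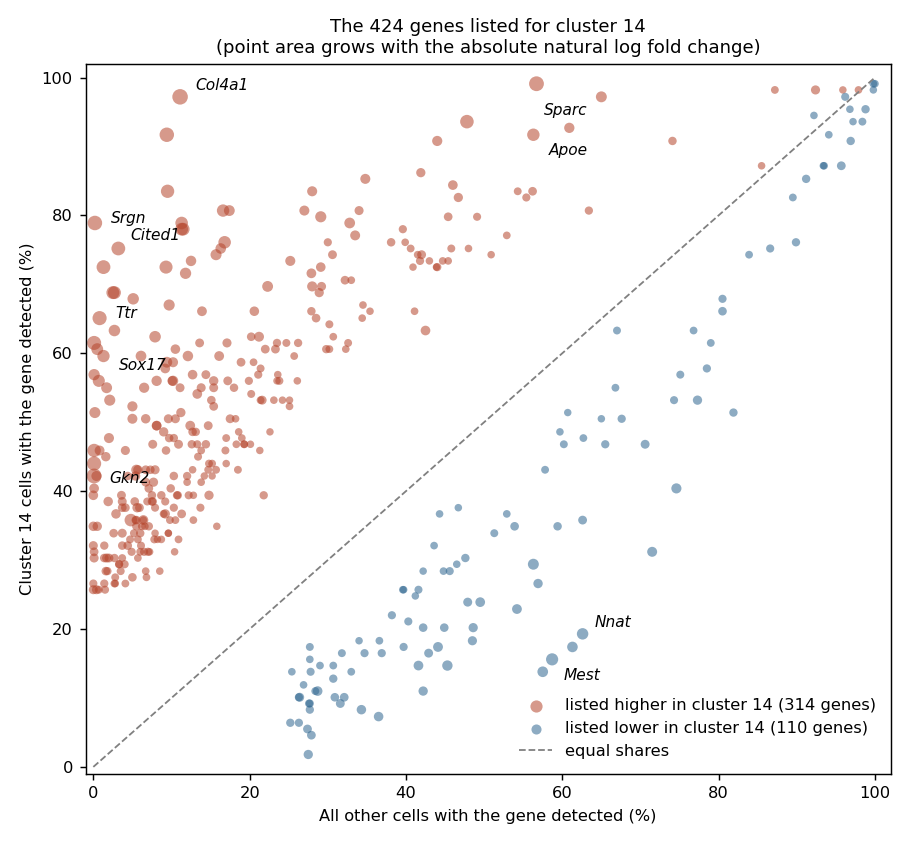
Percent of cluster 14 cells against percent of all other cells that detect each of the 424 listed genes, with point area growing with the absolute natural log fold change. All 314 higher genes lie above the line of equal shares, and 108 of the 110 lower genes lie below it.

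Of the 110 lower genes, 22 were listed lower in no other cluster, against 247 of the 314 higher genes. The detection floor of the table makes these counts unlike. Each lower gene was detected in at least 25.2% of other cells, so other clusters could list it. A higher gene could be nearly absent from other cells. Of the 110, 55 were listed higher in at least 1 other cluster. For 33 of the 110, at least 50% of cluster 14 cells still detected the gene. The authors' adjusted p-value over cells exceeded 0.01 for 44 of the 110. Cluster 2 also listed 63 of the 110 as lower. With cluster 2 taken out of the reference, 7 of the 73 lower genes that both clusters list no longer reached the table's threshold, and none changed direction.

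Imprinted growth genes had the largest values. Mest was 5.98-fold lower, with 15.6% against 58.7% of cells, per the authors' deposited table. Nnat was 4.74-fold lower (19.3% against 62.6%), and the cell cycle inhibitor Cdkn1c 4.07-fold lower (29.4% against 56.3%), according to the authors' deposited table. Snrpn, Ndn and Meg3 were 2.33-fold, 2.29-fold and 2.02-fold lower by the values in the authors' deposited table. Of the 14 imprinted genes in the table, 7 were lower (50%) and 2, H19 and Peg10, higher. Imprinted genes therefore stood in both directions. Mest was also lower in clusters 0, 2, 3, 7 and 8 and higher in clusters 1, 4, 6 and 11, so its lower level was shared with other clusters.

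Some glycolytic enzymes were listed lower. Ldhb was 3.70-fold lower, with 13.8% against 57.5% of cells, per the authors' deposited table. Eno1, Pgam1 and, outside the fixed list, the pyruvate kinase gene Pkm2 were 2.53-fold, 2.30-fold and 2.04-fold lower according to the authors' deposited table. In the authors' deposited table, Ldha, Aldoa and Gpi1 were 1.74-fold, 1.70-fold and 1.68-fold lower, and without cluster 2 in the reference they were 1.53-fold, 1.39-fold and 1.41-fold lower, under the threshold. Aldoa was detected in 94.5% of cluster 14 and 92.2% of other cells in the authors' deposited table, so its level differed and its detection hardly did. Of the 19 genes on the glycolysis and hypoxia list in the table, 7 were lower (36.8%), 2 higher and 10 not listed here. The higher members were the transporter Slc2a3 and the collagen enzyme P4ha1.

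Some chromatin and neural genes were lower as well. Of 32 chromatin and nuclear protein genes in the table, 12 were lower (37.5%) and 0 higher. Hmga2 and Npm3 of that list and Psip1 outside it were 2.50-fold, 2.15-fold and 2.58-fold lower by the values in the authors' deposited table. Smarcc1, a core BAF subunit, was 1.90-fold lower, with 28.4% against 45.6%, per the authors' deposited table. None of the 10 S phase genes in the table and 2 of the 20 G2 and M phase genes (Hmgb2 and Tuba1b) were lower. Ccnd1, a G1 cyclin, was 2.68-fold lower (8.3% against 34.3%) according to the authors' deposited table. Marcks, a substrate of protein kinase C, was 3.61-fold lower (17.4% against 61.3%), and the tubulin gene Tuba1a 3.18-fold lower (40.4% against 74.6%), by the values in the authors' deposited table. Of 18 neural genes in the table, 5 were lower (27.8%) and 0 higher, with Otx2 at 2.21-fold lower (4.6% against 27.9%) per the authors' deposited table. The Wnt antagonist Sfrp1 was 3.41-fold lower (14.7% against 45.3%) and Igfbp2, an insulin-like growth factor binding protein, 2.89-fold lower (22.9% against 54.2%) according to the authors' deposited table. Mfap2, a microfibril protein, had the lowest detection of all listed genes, 1.8% of cluster 14 against 27.5% of other cells by the values in the authors' deposited table.

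Markers of other cell types were counted beside these results. Of the 24 cardiomyocyte markers in the table, 0 were listed for cluster 14 in either direction. All 4 endothelial genes in the table were higher, Flt1, Sox17, Egfl7 at 2.83-fold and Ramp2 at 2.03-fold, while 21 of the 25, including Pecam1, Cdh5 and Kdr, were not in the table. Srgn was the only higher gene of the 29 on the blood list, where the globin genes and Ptprc were not in the table. Of the 26 trophoblast genes, the keratins, Peg10 and Rhox6 were higher, Hand1 was in the table but not listed for cluster 14, and the other 20, Cdx2 and Elf5 among them, were not in the table. Of the 14 definitive endoderm genes in the table, 7 were higher and 1 was lower (Otx2). Foxa2, Cer1, Trh and Shh were among the 6 not listed for cluster 14. Of the 16 mesoderm and streak genes in the table, 4 were higher (Fst, Gata4, Cited1 and Pdgfra; 25%), 2 lower (Ifitm1 and Mest) and 10 not listed. Of the 13 mesenchyme and fibroblast genes in the table, 1 was higher (Pdgfra), 1 lower (Vim) and 11 not listed. Of the 14 pluripotency and epiblast genes in the table, 4 were higher (Klf4, Dppa5a, Slc2a3 and Epcam; 28.6%), 1 was lower (Otx2), and 9, Pou5f1 and Sox2 among them, were not listed for cluster 14. Of the 9 stress and immediate early genes in the table, 3 were higher (33.3%), 1 lower (Hsp90ab1, 1.77-fold) and 5 not listed for cluster 14. The 3, Ccng1, Cdkn1a and Phlda3, were 1.84-fold, 1.83-fold and 1.71-fold higher per the authors' deposited table. Of 10 mitochondrially encoded genes, 3 were higher (30%), mt-Nd4, mt-Co2 and mt-Cytb, at 1.79-fold, 1.73-fold and 1.67-fold per the authors' deposited table. Both shares stand beside 26.2% of all genes in the table. In cluster 2, Ccng1, Cdkn1a and Phlda3 were 3.13-fold, 3.88-fold and 2.39-fold higher by the values in the authors' deposited table. In cluster 13, mt-Nd4, mt-Co2 and mt-Cytb were 2.47-fold, 3.03-fold and 3.25-fold higher per the authors' deposited table. The part of these genes in the other results was not tested.

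Clusters 3, 5, 10 and 13 were set beside cluster 14, and clusters 8 and 9 were added after the values were seen. Each cluster has its own comparison with all other cells, and these share most of their cells, so the values stand side by side without a test. Sparc was higher in clusters 14 and 9, at 16.2-fold and 3.63-fold, and 99.1% and 95.0% of their cells detected it, according to the authors' deposited table. Apoe was 6.53-fold and 2.48-fold higher in the same clusters, and Gata6 2.55-fold and 1.90-fold, by the values in the authors' deposited table. The epithelial genes split in another way. Krt8 was 8.87-fold higher in cluster 3 against 1.94-fold in cluster 14, Krt19 6.04-fold against 1.86-fold and Krt18 5.66-fold against 3.11-fold per the authors' deposited table. Cldn6 was 6.08-fold higher in cluster 3, 4.48-fold in cluster 14 and 1.93-fold in cluster 8, while Cldn7 was 2.34-fold, 3.24-fold and 1.74-fold higher according to the authors' deposited table. Epcam was 4.04-fold higher in cluster 8, 3.67-fold in cluster 3 and 2.28-fold in cluster 14 by the values in the authors' deposited table. Serpinh1 was also higher in clusters 9 and 10, at 2.09-fold and 1.86-fold, in the authors' deposited table. Sparc and Serpinh1, higher in cluster 14, were lower in cluster 3, at 1.68-fold and 1.99-fold, per the authors' deposited table. Clusters 3 and 14 thus both listed keratins and claudins as higher, and had the matrix genes Sparc and Serpinh1 in opposite directions.

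**Figure D4:**
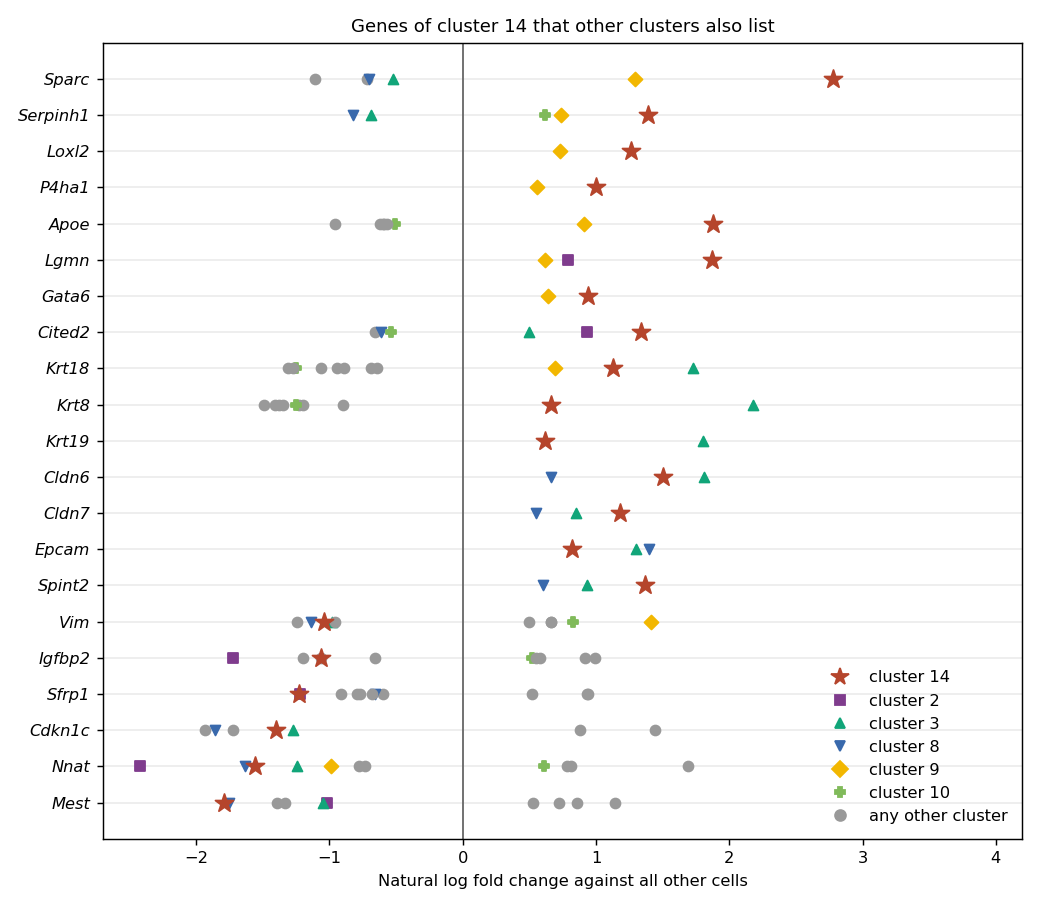
Natural log fold change of each gene against all other cells in cluster 14 (stars) and in every other cluster that lists it, with clusters 2, 3, 8, 9 and 10 in their own symbols. Sparc lies furthest right in cluster 14, and the keratins lie further right in cluster 3 than in cluster 14.

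By role, 235 of the 314 higher genes fell into 17 groups assigned after the values were seen, and 78 of the 110 lower genes into 11. The other 79 higher genes, to which no role was given, were between 1.65-fold and 4.32-fold higher and were detected in 26.6% to 84.4% of cluster 14 cells according to the authors' deposited table. The other 32 lower genes were between 1.67-fold and 3.05-fold lower by the values in the authors' deposited table. The largest of these by value were S100a1, a calcium-binding protein, among the higher genes and Ifitm2, an interferon-induced membrane gene, among the lower ones.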

How the data were processed

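Single cells of 4 libraries, 1 per genotype and stage, were profiled by 10x droplet sequencing, per the series' design text. The submitters' processing notes name Cell Ranger, Seurat and the mm9 build. For versions, cell filters, doublets and clustering settings, nothing is stated in the labels or the file. The authors deposited a marker table whose entries each compare the cells of 1 numbered cluster with the rest, per the file headers. Its values are natural log fold changes, the fraction of cells with the gene inside and outside the cluster, and p-values over cells, as deposited by the authors. Cells are not replicates, so the p-values served only as a filter in 1 alternative.

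The deposited log values were turned into folds with the natural base, which was checked on 2 genes listed for nearly all clusters, whose levels weighted by cluster size must account for all expression. It held for 2 of 2, base 2 and base 10 for 0. Cluster sizes were solved by least squares over 407 genes listed for 2 or more clusters (residual SD 0.0272 percentage points), a step tested on simulated data. Of the 29 gene lists, members listed higher or lower were counted beside the share of all genes. Genes named were the 30 highest and 20 lowest by log fold change without predicted models, all listed members of the given, parietal, visceral and regulator lists, and 6 per other list. Members and lists were chosen with earlier results of these data known. The comparisons of genotype and stage were not made, and protein features were not analysed. Alternatives were stricter thresholds, other sets of genes, cluster 2 out of the reference and base 2. Python 3.11.15, numpy 2.4.6, pandas 2.3.3 and matplotlib 3.10.9 were used.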

Additional observations from a re-analysis of the deposited data

How the results depend on the processing

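No paired analysis was possible because each group has 1 library and the table names no library, so no replicate could be left out either. The size of cluster 14 was 0.291% of cells, 0.306% from genes listed for 3 or more clusters, 0.289% without shares under 5% and 0.297% as a median over pairs of clusters. The number of genes for which it held at least 25% of the detecting cells was 16 with either size tried.

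The counts of listed genes depended on the threshold. With entries of 1 or more in size on the natural log scale, 83 genes were higher, 14 lower and 55 higher in cluster 14 alone, and 54 of the 125 higher list members were left. The same threshold left 4 extraembryonic endoderm regulators, 6 genes of collagen processing and folding, 1 of vesicle transport and 11 of endocytosis and lysosome. With at least 50% of cells detecting a gene on the side with more, 159 genes were higher, 53 lower and 108 higher in cluster 14 alone, and 4 regulators were left. An adjusted p-value over cells of at most 0.01 left 66 lower genes, and a difference of at least 20 percentage points left 37. Counting only members that no other cluster lists in the same direction left 83 list members and 4 carriers. Fewer genes pass a stricter threshold by construction. With the logarithm read as base 2, 51 rather than 64 of the higher genes named by the rule were at least 2-fold higher. Of the other values recomputed, 254 stayed within the limits set, 96 moved past them and 0 reversed. With cluster 2 out of the reference, 8 of 99 genes that both clusters list fell under the threshold and 0 changed direction.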
